A study of Homo sapiens with 46 samples.

Results

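MALAT1, NEAT1, KCNQ1OT1, NORAD and TUG1, 5 long noncoding RNAs known as abundant or nuclear, were followed in 46 RNA-seq libraries of DLD-1, an established human colorectal adenocarcinoma line. They were picked by name, and all 5 of them, out of 62756 genes in the count table, were found by symbol and passed the filter on low counts. The parental cells carried no tag. The other lines carried an auxin-inducible degron (AID), a tag that sends its protein to degradation once auxin is given, at the N terminus of endogenous lamin A/C (LAC), lamin B1 (LB1) or lamin B2 (LB2). Lamins are the filaments that line the inner face of the nuclear envelope. Every line was sampled after 0, 16 and 96 h with 1 mM auxin (in DMSO), so the parental cells at 16 and 96 h received auxin without a degron to act on. This made 12 groups, with 3 libraries in LB1 at 0 h and in LB2 at 96 h and 4 in each other group. Each replicate was 1 well of a plate, so p-values measure the spread between wells, which may be technical. The labels do not say whether the cells at 0 h received DMSO, nor whether a tagged line is 1 clone.

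MALAT1 and NEAT1 are made from neighbouring genes on chromosome 11 and stay in the nucleus, MALAT1 at nuclear speckles, which store splicing factors, and NEAT1 as the scaffold of paraspeckles, bodies that hold RNA-binding proteins. KCNQ1OT1 is an imprinted antisense RNA, made from the paternal allele inside the gene KCNQ1, that keeps neighbouring genes silent on that allele. NORAD binds Pumilio proteins, which shorten the life of messenger RNAs, and is known as largely cytoplasmic, and TUG1 is found in both nucleus and cytoplasm. Whole-cell RNA was sequenced, so the label nuclear could not be checked here. In such bulk samples fewer cells expressing an RNA and less of it per cell cannot be told apart.

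The libraries held between 479446 and 37309421 counts, and 6 of them, 5 at 0 h, were under 5000000. The least deep, LB2 at 16 h replicate 3, also had the highest share of mitochondrial counts, 8.48%. The 8 colon epithelial markers summed to 6282 to 12060 CPM (counts scaled to the same total in every library, for the markers without TMM factors). KRT8 was the highest of them, at 3211 to 7650 CPM. VIL1 was nearly absent, at 0 to 4.61 CPM with a median of 1.21. That median was below the one of VWF, an endothelial marker, at 5.98 CPM. The 7 markers of blood, fibroblasts and endothelium summed to 2.09 to 21.4 CPM, with COL1A2 at 0 in every library and VWF, at 2.09 to 16.3 CPM, making up most of the sum. All later CPM values, unlike those of the markers, are scaled with TMM factors. The degron acts on protein, so the lamin messages do not check the labels.

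How much of each RNA the counts can see was settled first, because genes overlap. The library kit marks strand, yet the counts behaved as if strand had been ignored and reads shared by genes had been dropped. Of 523 genes whose exons were covered completely by genes of the opposite strand and by none of their own, 521 (99.6%) had 0 counts over all libraries. Where at least 200 bases were free, 9.8% of 9861 genes had 0. MALAT1 (ENSG00000251562.10, GRCh38 chr11:65497688-65506516, plus strand) lies across from TALAM1, an antisense gene on its opposite strand (chr11:65499312-65507432), and ENSG00000270117. Only 1014 of its 8829 exonic bases (11.5%) were free on both strands, at chr11:65497688-65498007 and chr11:65498618-65499311. The MALAT1 counts therefore came from its 5′ end alone. NEAT1 (ENSG00000245532.11, chr11:65422774-65445540, plus) was free over 97.9% of its bases, KCNQ1OT1 (ENSG00000269821.1, chr11:2608328-2699994, minus) over 98.8%, NORAD (ENSG00000260032.2, chr20:36045618-36051018, minus) over all of its length and TUG1 (ENSG00000253352.10, chr22:30969245-30979395, plus) over 85.6%.

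**Figure D1:**
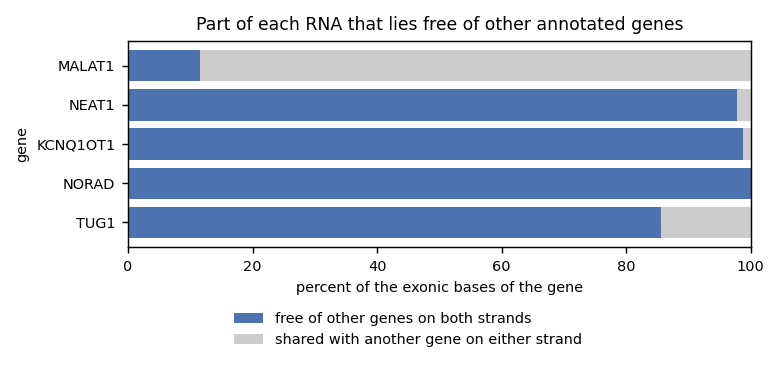
Percent of the exonic bases of each gene, on the x axis, that are free of other annotated genes on both strands (blue) or shared with one (grey). The bar of MALAT1 ends at 11.5%, while the other 4 genes are at least 85.6% free.

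A downstream start site and the 3′ end of MALAT1 are shown to mark what was and was not counted. The first sequence, from RefSeq (GRCh38.p14), holds 70 bases before and, in capitals, 50 bases from the downstream RefSeq start site at chr11:65499045 (plus strand, chr11:65498975-65499094). Only 267 bases from that start site onward were free of other genes, and the rest of the 1014 free bases lay before it. Transcripts begun there could be counted over those 267 bases alone, and the use of start sites was not tested. The second sequence, from the GENCODE 29 transcript MALAT1-202 (chr11:65506019-65506136, plus strand), holds the 3′ end element. In it the 2 U-rich stretches and the A-rich stretch, known to fold into a triple helix that protects the unpolyadenylated end, are in capitals. It lies inside TALAM1, so reads over it did not enter the counts.
MALAT1 downstream start: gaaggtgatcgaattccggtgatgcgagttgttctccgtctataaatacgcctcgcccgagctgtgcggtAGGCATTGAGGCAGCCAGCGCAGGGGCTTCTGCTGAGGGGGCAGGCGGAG
MALAT1 3′ end element: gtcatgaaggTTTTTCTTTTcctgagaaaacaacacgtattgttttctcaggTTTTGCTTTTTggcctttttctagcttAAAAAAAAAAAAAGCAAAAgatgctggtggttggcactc

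Levels per length placed NORAD first. Its mean over the 46 libraries was 107.6 CPM per kilobase of gene length, against 18.95 for TUG1, 17.06 for NEAT1, 2.7 for MALAT1 and 0.644 for KCNQ1OT1. Over single libraries NORAD ran from 41.2 to 147 CPM per kilobase, and the highest NEAT1 library, at 41.4, reached its lower end. TUG1 (5.36 to 26.5) and NEAT1 (7.77 to 41.4) overlapped, and their order is not beyond their spread. The ranges of MALAT1 (0.85 to 6.29) and KCNQ1OT1 (0.261 to 1.57) also overlapped over all libraries, though not for the means of the 12 groups. Counted over its free bases alone, MALAT1 stood at 23.5 CPM per kilobase, ahead of TUG1 at 22.14 and NEAT1 at 17.43 on the same scale. Transcripts from the downstream start hold only 267 of its 1014 free bases, so its place on this scale is not settled. Among 2787 noncoding genes tested that were at least 1 kb long, NORAD ranked 1 per kilobase of gene length, TUG1 15, NEAT1 16, MALAT1 156 and KCNQ1OT1 1077. By CPM without regard to length NORAD ranked 1, NEAT1 4, TUG1 9, KCNQ1OT1 24 and MALAT1 75. NORAD, TUG1 and NEAT1 thus ranked high on both scales, the place of KCNQ1OT1 depended on whether its long span was counted, and that of MALAT1 on the length used.

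**Figure D2:**
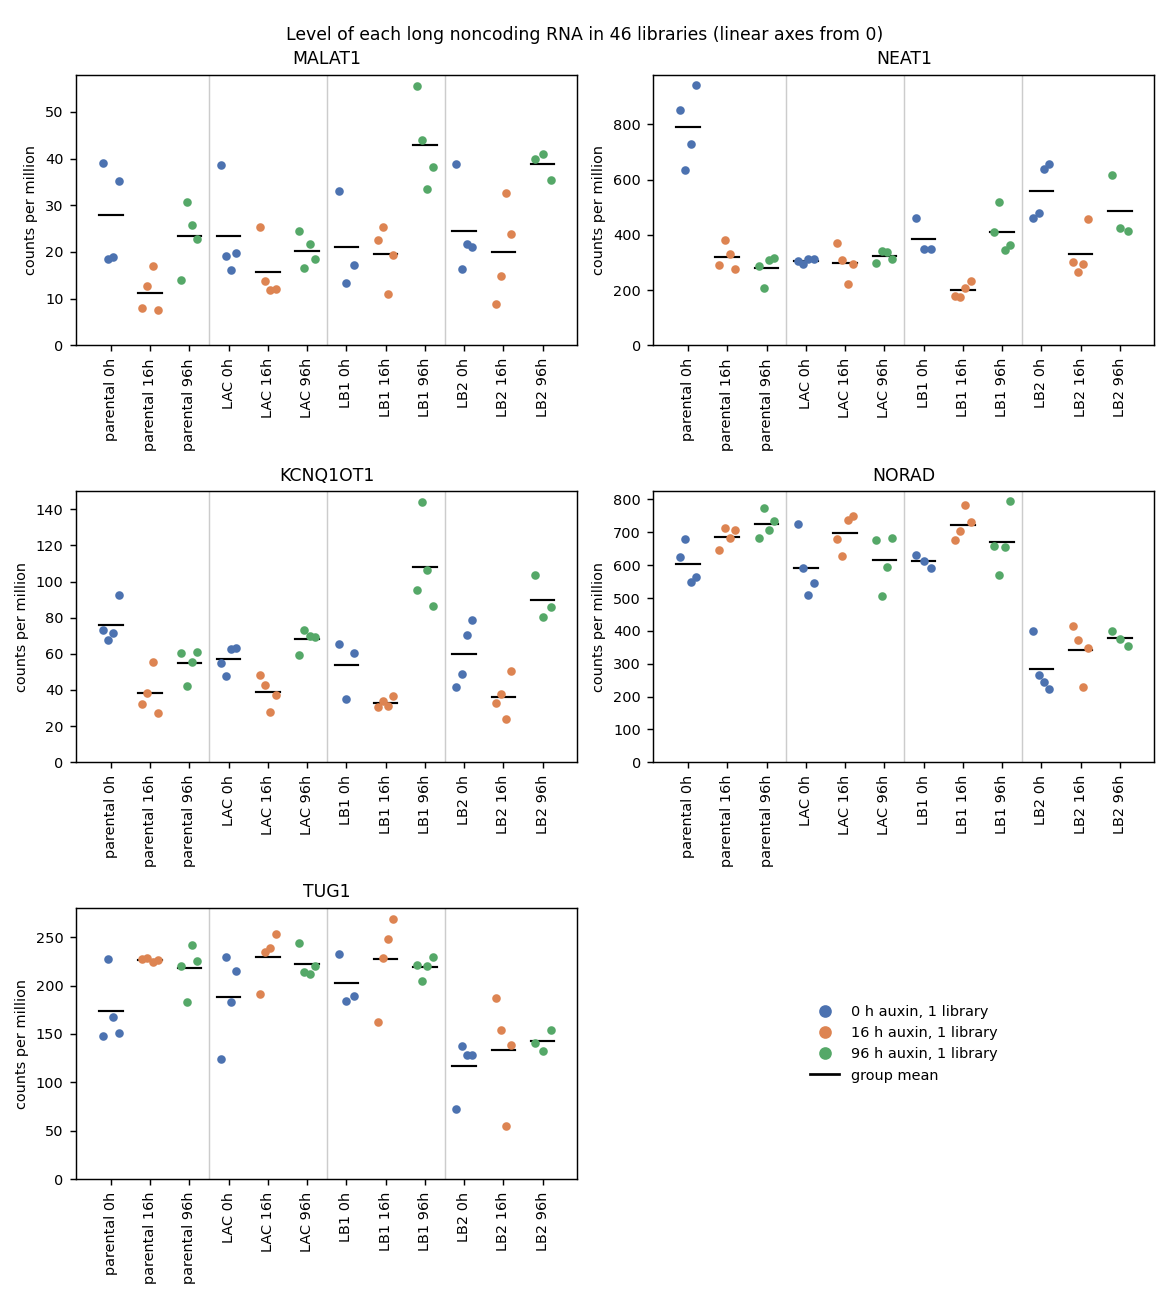
CPM (y axes, linear from 0) of the 5 RNAs in each library (points, coloured by hours of auxin) and the group means (black bars). NEAT1 in parental cells at 0 h (634.9 to 941.7) lies above both auxin times of that line, and NORAD in the 11 LB2 libraries (222.7 to 413.8) lies below the other 35.

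Changes were tested in 1 edgeR fit over all 46 libraries with p-values adjusted over 21484 genes, calling those with an adjusted p under 0.05. Each count of the 5 RNAs called is given with the share of all tested genes called in the same comparison. In parental cells 3 fell at 16 h (9.01% of all genes called) and 1 fell at 96 h (7.78%). In LAC cells edgeR called 0 at 16 h (1.78%) and 0 at 96 h (15.4%); at an unadjusted p under 0.05 they were 1 and 0, with DESeq2 1 and 0, and with limma 2 and 0. In LB1 cells 1 fell at 16 h (1.5%) and 1 rose at 96 h (3.17%). In LB2 cells 1 fell at 16 h (1.81%), and edgeR called 0 at 96 h (3.55%), where 3 had an unadjusted p under 0.05, DESeq2 called 1 and limma 3.

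The response of a tagged line minus that of the parental line takes out the change that auxin made in parental cells. Tagged lines could already differ from parental cells at 0 h. An effect of the degron and a difference between lines therefore cannot be told apart in it. These differences were called for 1 RNA in LAC at 16 h (0.116% of all genes) and 1 at 96 h (7.4%). In LB1 edgeR called 0 at 16 h (0.0279%) and 2 at 96 h (1.04%), and in LB2 0 at 16 h (0.00465%) and 1 at 96 h (0.368%). In each of the 2 comparisons without a call, 1 RNA had an unadjusted p under 0.05, and DESeq2 and limma called 0. Before auxin, 1 RNA differed from parental cells in LAC (15.8%), 1 in LB1 (4.05%) and 1 in LB2 (8.21%). Between 96 and 16 h, comparisons added after the data were seen, edgeR called 0 in parental cells (0.265%; unadjusted 2, DESeq2 0, limma 2), 1 in LAC (5.27%), 3 in LB1 (20.4%) and 2 in LB2 (2.5%), each of them higher at 96 h.

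**Figure D3:**
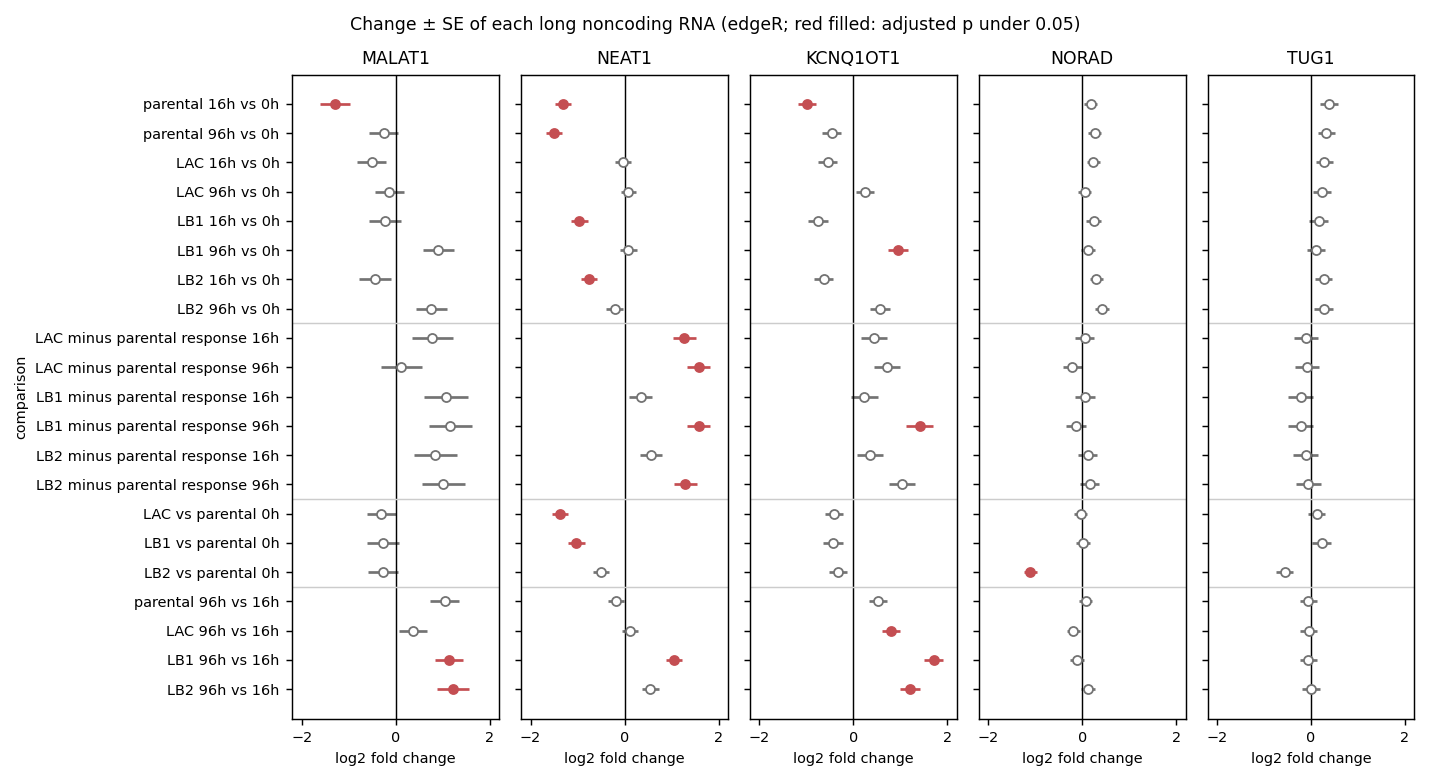
Log2 fold change (x axes) ± SE of each RNA in the 21 comparisons (y axis); red filled points passed an edgeR adjusted p of 0.05. NEAT1 has filled points to the left in parental cells, at -1.31 and -1.49, and to the right for the response differences, while NORAD has 1 filled point, at -1.10 for LB2 against parental cells, and TUG1 none.

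NEAT1 was highest in parental cells at 0 h, where its level was 852.4, 634.9, 728.5 and 941.7 CPM in the 4 libraries. With auxin it was 289.3, 380.5, 329.4 and 274.9 CPM at 16 h, and 286.5, 207.7, 309.8 and 317.5 CPM at 96 h. The groups did not overlap at either time, and every treated parental library was below every untreated one. By edgeR, NEAT1 fell by 1.31 ± 0.17 on the log2 scale at 16 h (2.48-fold lower, adjusted p = 1.45e-06) and by 1.49 ± 0.17 at 96 h (2.82-fold lower, adjusted p = 3.01e-08). Both calls held under all 17 alternatives.

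Tagged cells started from less NEAT1. In LAC at 0 h it stood at 306.2, 294.6, 313.1 and 310.9 CPM, a narrow range within that of auxin-treated parental cells. In LB1 it was 461.9, 347.8 and 350.3 CPM. Both lines lay below every parental library at 0 h, by 1.37 ± 0.17 on the log2 scale in LAC (log2 fold change -1.37, edgeR adjusted p = 8.43e-08) and by 1.03 ± 0.18 in LB1 (-1.03, adjusted p = 0.000126). LB2, at 460.7, 477.6, 638.5 and 655.5 CPM, overlapped parental cells, and its difference of -0.50 ± 0.17 had an edgeR adjusted p of 0.0509.

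After auxin NEAT1 was called lower at 16 h in LB1 and LB2 and was not called in LAC; the tagged lines were not tested against each other. LAC held 369.3, 308.7, 223.0 and 295.9 CPM at 16 h and 299.5, 343.2, 339.0 and 312.0 at 96 h, overlapping 0 h both times, with log2 fold changes of -0.03 ± 0.17 and 0.08 ± 0.17. LB1 held 178.1, 176.9, 206.0 and 234.2 CPM at 16 h, all below 0 h (log2 fold change -0.96 ± 0.18, edgeR adjusted p = 0.00187). At 96 h it was back at 410.5, 518.1, 346.5 and 364.5 CPM, above every 16 h library (1.04 ± 0.17, adjusted p = 1.31e-05) and overlapping 0 h.

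In LB2 the NEAT1 level was 302.5, 265.1, 293.6 and 456.0 CPM at 16 h and 616.1, 423.4 and 413.8 at 96 h. All 16 h libraries were below all 0 h ones, the highest of the former (456.0) just under the lowest of the latter (460.7), while the 96 h libraries overlapped both. The difference of 0.55 ± 0.18 between 96 and 16 h was not called (edgeR adjusted p = 0.0858). The fall at 16 h was -0.75 ± 0.17 with an edgeR adjusted p of 0.00985, and -0.72 (adjusted p = 0.019) without the least deep library, replicate 3. That call ended in a fit on the compared libraries alone (adjusted p = 0.617) and without any 1 of 4 libraries (LB2 at 0 h replicate 3 or 4, or at 16 h replicate 1 or 2), and over all 17 alternatives the adjusted p ran from 2.78e-05 to 0.617.

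Set against the parental response, the NEAT1 response of tagged cells was higher at 96 h in all 3 lines. At 96 h the difference in log2 fold change was 1.57 ± 0.24 in LAC (edgeR adjusted p = 8.48e-05), 1.57 ± 0.25 in LB1 (0.000616) and 1.29 ± 0.24 in LB2 (0.0179). At 16 h it was 1.27 ± 0.24 in LAC (0.00514), and 0.35 in LB1 and 0.55 in LB2 were not called. These values all use the same parental libraries, and those at 0 h also enter the comparisons before auxin, so they are not separate evidence. The call in LB2 ended without parental 96 h replicate 2, LB2 0 h replicate 2 or LB2 96 h replicate 1 (adjusted p from 0.000563 to 0.0791 over all alternatives), and those in LAC and LB1 held in every alternative run.

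The paraspeckle proteins, 21 genes all of which were tested, had their highest count of calls between LAC and parental cells before auxin. In parental cells at 96 h, where NEAT1 was lower, 4 rose and 0 fell (7.78% of all genes called either way): NUDT21 (log2 fold change 0.50), a cleavage factor subunit, and the RNA-binding proteins HNRNPR (0.44), RBMX (0.44) and SRSF10 (0.43). At 16 h NEAT1 was called lower in parental, LB1 and LB2 cells. In parental cells 2 of the list then rose and 1 fell, PSPC1 (-0.39), with 9.01% of all genes called. In LB2 at 16 h 4 rose and 0 fell (1.81%), and in LB1 edgeR called 0 (1.5%). Before auxin 8 were higher in LAC than in parental cells and 0 lower (15.8% of all genes called), with the list's median at 0.28 against -0.06 for all genes. Among them were NONO (0.39), a core protein of the paraspeckle, and RBM14 (0.40), needed to build it. In LAC at 96 h (15.4% of all genes called) 1 rose, SRSF10 (0.50), and 4 fell, including TAF15 (-0.70), RBM14 (-0.62) and SMARCA4 (-0.59). In LB1 at 96 h edgeR called 0 of them (3.17%), and in LB2 3 rose (3.55%), with EWSR1 at 0.51. From 16 to 96 h in LB1, where NEAT1 rose, 1 was higher, PSPC1 (0.36), and 5 were lower (20.4% of all genes called). NONO (-0.36) was among the 5. The LAC libraries also differed in how counts leaned on GC content. Across protein-coding genes, Spearman rho of a library's deviation from the mean with GC content was -0.18 to 0.69 in LAC at 0 h. It was -0.53 to 0.11 in LAC at 96 h and -0.25 to 0.31 in parental cells at 0 h. Its part in the LAC calls of this and the other gene lists was not tested.

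Some genes around NEAT1 were called in its direction and some against it. Of 30 tested within 250 kb, 6 were higher and 0 lower in LAC than in parental cells before auxin, where NEAT1 itself was lower, a share near that of all genes called (15.8%). After 96 h of auxin in LAC, where NEAT1 was level, 11 were lower and 0 higher (15.4% of all genes called), with a median of -0.54 against 0.03 for all genes. Among them were LTBP3 (-1.17) and ZNRD2 (-0.58). The LAC libraries at 0 and 96 h differed in their trend on GC content, as given above, and its part here was not tested. In parental cells at 16 h 2 were called (9.01% of all genes called), MALAT1 (-1.29) in the direction of NEAT1 and RELA (0.39) against it. At 96 h 1 was called there (7.78%), CAPN1 (-0.47), which codes for a calcium-activated protease. CAPN1 was also lower at 96 h in LAC (-0.96), LB1 (-0.76) and LB2 (-0.70), where NEAT1 was not called. From 16 to 96 h in LB1, where NEAT1 rose, MALAT1 (1.14) and TALAM1 (2.33) were higher. There 6 neighbours were lower, CAPN1 (-0.81) among them (20.4% of all genes called).

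MALAT1, read from its 5′ end, fell in parental cells at 16 h. It was 39.0, 18.4, 19.0 and 35.3 CPM at 0 h, 8.1, 12.7, 17.0 and 7.5 at 16 h, and 14.1, 30.7, 25.9 and 22.8 at 96 h. All 16 h libraries were below all 0 h ones, and the 96 h libraries spanned the gap. The change at 16 h was -1.29 ± 0.32 (edgeR adjusted p = 0.00817), and without parental 0 h replicate 1 it was -1.03 with an adjusted p of 0.0648 (5.59e-07 to 0.0648 over all alternatives). At 96 h it was -0.25 ± 0.31 (adjusted p = 0.668). MALAT1 rested on 15 to 731 counts a library, which limits its precision.

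In LB1 MALAT1 was 33.1, 13.3 and 17.1 CPM at 0 h, 22.6, 25.3, 11.0 and 19.4 at 16 h, and 55.6, 44.0, 33.6 and 38.3 at 96 h. The 96 h libraries were above all others of the line, yet the change from 0 h, 0.91 ± 0.34, was not called (edgeR adjusted p = 0.148), and that from 16 h, 1.14 ± 0.30, was (0.00571). In LB2 it was 38.8, 16.4, 21.6 and 21.1 CPM at 0 h, 8.9, 14.8, 32.6 and 23.8 at 16 h and 40.0, 40.9 and 35.4 at 96 h. The rise from 16 to 96 h, 1.21 ± 0.34 (edgeR adjusted p = 0.0412), was lost with DESeq2 and without any 1 of 5 libraries (LB2 at 16 h replicate 1 or 2, or any at 96 h), with an adjusted p of up to 0.204. In LAC it ran from 11.9 to 38.5 CPM with overlap at all times and no call. The share of mitochondrial counts was 2.10 to 3.18% in LB1 at 96 h, above 0.539 to 1.02% in LB1 at 16 h. It was 0.502 to 0.952% in parental cells at 16 h and 0.751 to 2.53% at 96 h. In LB2 the times overlapped. Its libraries held 0.761 to 2.85% at 0 h, 0.537 to 8.48% at 16 h and 1.75 to 2.86% at 96 h. The part of this share in the MALAT1 values was not tested.

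TALAM1, the antisense partner, was counted over the 916 bases past the end of MALAT1 and held 516 counts in all libraries. It rose in LB1 from 16 to 96 h (2.33 ± 0.56, edgeR adjusted p = 0.00231), and its reads cannot be told from MALAT1 transcripts that run on. Of 6 genes for the cutting and methylation of MALAT1, 2 rose in parental cells at 16 h (9.01% of all genes called). They were ELAC2 (0.42), a tRNA nuclease, and METTL16 (0.61), a methyltransferase that binds the triple helix. At 96 h METTL16 alone passed in parental cells (0.63; 7.78% of all genes called), and in LAC ELAC2 fell (-0.40; 15.4%). In LB1 (3.17%) and LB2 (3.55%) edgeR called 0 of the 6. Of 22 nuclear speckle proteins 1 rose in parental cells at 96 h, U2AF2 (0.46), with 7.78% of all genes called. In LAC (15.4%) 1 rose, SRSF1 (0.59), and 3 fell. These were SF3B2 (-0.79), PRPF6 (-0.63) and SRRM2 (-0.53), a scaffold of the speckle. In LB1 (3.17%) and LB2 (3.55%) at 96 h edgeR called 0. At 16 h in parental cells, where MALAT1 fell, 2 rose and 2 fell (9.01%). From 16 to 96 h, where MALAT1 was higher in LB1 and LB2, 3 rose and 4 fell in LB1 (20.4%). In LB2 0 rose and 1 fell (2.5%).

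KCNQ1OT1 was highest in LB1 at 96 h. In that line it was 65.5, 35.2 and 60.6 CPM at 0 h, 30.5, 33.7, 31.4 and 36.6 at 16 h, and 95.3, 143.9, 106.5 and 86.3 at 96 h. The 96 h libraries were the highest of the line without overlap, and 1 of the 16 h libraries lay above the lowest at 0 h. The change from 0 to 16 h, -0.75 ± 0.21, was not called by edgeR (adjusted p = 0.0523), while 9 of 16 alternatives, DESeq2 and limma among them, called it. From 0 to 96 h it rose by 0.95 ± 0.21 on the log2 scale (1.93-fold, edgeR adjusted p = 0.00439), a call that was lost without LB1 0 h replicate 2 (0.78, adjusted p = 0.0771, with 0.000108 to 0.0771 over all alternatives), the library with 1452968 counts. From 16 to 96 h it rose by 1.70 ± 0.20 (3.26-fold, adjusted p = 1.70e-08). Once the trend of counts on GC content and length was taken out, that rise was 1.08 and was still called.

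In parental cells KCNQ1OT1 was 73.2, 67.6, 71.6 and 92.3 CPM at 0 h, 32.3, 38.6, 55.4 and 27.2 at 16 h, and 60.7, 42.4, 55.6 and 61.2 at 96 h. Both auxin times lay below 0 h without overlap. The fall at 16 h was -0.99 ± 0.20 (edgeR adjusted p = 0.00115), or -0.51 with the GC and length trend removed, still called. At 96 h it was -0.46 ± 0.19 (edgeR adjusted p = 0.13), but its direction turned, to 0.014, once the trend on GC content and length was taken out. The response in LB1 at 96 h exceeded the parental one by 1.42 ± 0.29 (edgeR adjusted p = 0.0108). With the GC and length trend removed that difference was 0.61 (adjusted p = 0.0719), and without LB1 0 h replicate 2 it was 1.23 (adjusted p = 0.0524), the range over all alternatives being 0.000304 to 0.0719.

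KCNQ1OT1 was also lower at 16 h than at 96 h in LAC and LB2. In LAC it was 54.7, 47.8, 62.7 and 63.3 CPM at 0 h, 48.5, 43.0, 27.6 and 37.0 at 16 h, and 59.5, 73.1, 69.9 and 69.5 at 96 h. In LB2 it was 41.6, 48.9, 70.2 and 79.0, then 32.9, 38.0, 23.9 and 50.7, then 103.6, 80.3 and 86.1. The 16 and 96 h libraries did not overlap in either line, with a rise of 0.80 ± 0.19 in LAC (edgeR adjusted p = 0.00619, lost at 0.072 without LAC 16 h replicate 3) and of 1.21 ± 0.21 in LB2 (0.00047; 0.78 with the GC and length trend removed, still called). Against 0 h, edgeR called no change of KCNQ1OT1 in LAC or LB2. At 16 h it was -0.55 ± 0.19 in LAC (4 of 17 alternatives called it) and -0.64 ± 0.20 in LB2 (5 of 17), with DESeq2 and limma among those that did. In LAC the mitochondrial share moved along too, at 0.525 to 0.716% at 16 h and 0.908 to 0.958% at 96 h. In LB2 the ranges of this share at 16 and 96 h overlapped. Its part in either line was not tested.

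KCNQ1, the potassium channel gene whose span holds KCNQ1OT1 on the other strand, also rose in the tagged lines at 96 h. In parental cells its mean was 5.46 ± 2.74 CPM (SD, n = 4) at 0 h and 7.64 ± 2.19 (SD, n = 4) at 96 h, with no call. Its mean was 4.58 ± 1.24 CPM (SD, n = 3) in LB1 at 0 h, 2.15 ± 0.78 (SD, n = 4) at 16 h and 11.2 ± 2.93 (SD, n = 4) at 96 h. By edgeR it rose at 96 h against 0 h in LB1 (1.19 ± 0.31, adjusted p = 0.0184), LAC (1.87 ± 0.30, 2.51e-05) and LB2 (1.90 ± 0.34, 0.000315). Against the parental response the difference at 96 h was called in LAC (1.29 ± 0.42, edgeR adjusted p = 0.0484) and not in LB1 or LB2. Without strand, reads from KCNQ1 introns and from KCNQ1OT1 cannot be told apart. KCNQ1 was also lower than in parental cells before auxin in LAC (-1.40) and LB2 (-1.42). At 0 h KCNQ1 rested on 6 to 49 counts a library in LAC and 3 to 34 in LB2, which limits its precision. Its calls were not checked under the alternatives.

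**Figure D4:**
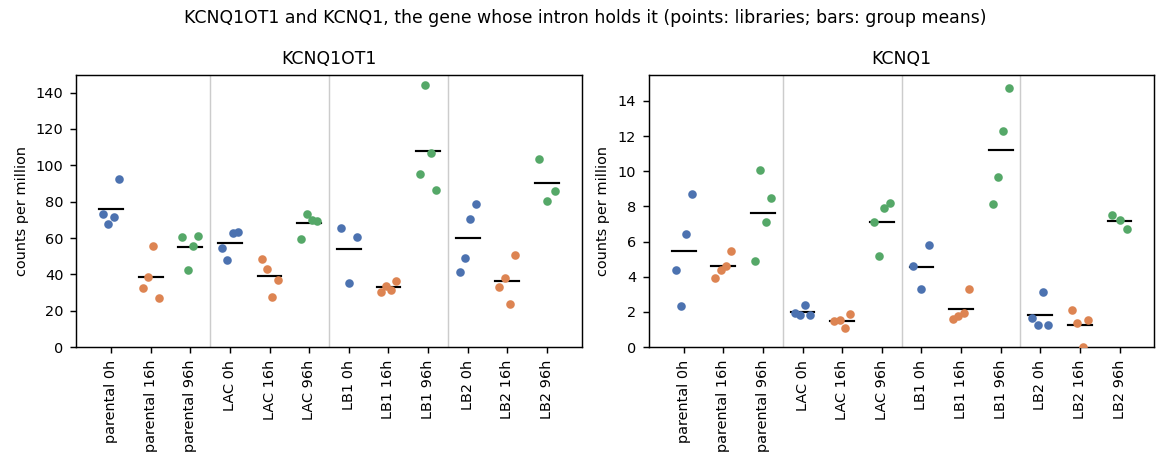
CPM (y axes, linear from 0, scaled separately) of KCNQ1OT1 and of KCNQ1 in each library (points) with group means (bars), for 12 groups. The highest group mean of both is in LB1 at 96 h, 108 for KCNQ1OT1 and 11.2 for KCNQ1.

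The rest of the imprinted domain, 15 genes of which 12 were tested, held 2 to 4 calls in each line at 96 h. In LB1 (3.17% of all genes called) KCNQ1 rose and 2 genes fell: CDKN1C (-1.17 ± 0.33, edgeR adjusted p = 0.0356), a growth inhibitor silenced by KCNQ1OT1 on the paternal allele, and CARS1 (-0.83), a tRNA synthetase. In LAC (15.4%) KCNQ1 rose while PHLDA2 (-0.997), a maternally expressed growth regulator, TSSC4 (-0.55) and CARS1 (-0.43) fell. In LB2 (3.55%) KCNQ1 rose and CARS1 fell (-0.56). In parental cells (7.78%) OSBPL5 (0.54) rose and CARS1 (-0.72) fell, so the fall of CARS1 was called in all 4 lines. Of 15 genes of the Polycomb and G9a complexes, which silence the domain, 1 rose at 96 h in parental cells (7.78%), PHF19 (0.62). In LAC (15.4%) 3 rose and 4 fell, with RBBP4 at 0.44 and PHF1 at -0.74. EdgeR called 0 in LB1 (3.17%) and LB2 (3.55%). Of 16 nuclear exosome genes, which degrade nuclear RNA, edgeR called 0 at 96 h in parental (7.78%) and LB1 cells (3.17%). In LAC (15.4%) 1 rose and 2 fell, and in LB2 (3.55%) EXOSC3 rose (0.64).

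NORAD separated LB2 from the other lines. The sequences that define it are its Pumilio elements, shown here for the 3 places where 2 lie side by side, from the GENCODE 29 transcript NORAD-201. The motif searched was TGTANATA on the transcript strand, in capitals below, and each pair starts 9 bases apart. NORAD-201 held 15 such motifs in 5339 bases, 2.81 per kilobase. TUG1 held 2, NEAT1 6, KCNQ1OT1 9 and MALAT1 0 in their longest transcripts, or 0 to 0.268 per kilobase. Of 131 other lincRNA transcripts of at least 5000 bases, 43.5% held the motif, 1 held at least 15 and 0 as many per kilobase. The motif is shown as a description and was not tied to the counts.
NORAD 1436 to 1465 (chr20:36049496-36049525, minus): tatctgTGTATATAgTGTACATAaaggaca
NORAD 2633 to 2662 (chr20:36048299-36048328, minus): ctatacTGTATATAtTGTATATAtaacgga
NORAD 3269 to 3298 (chr20:36047663-36047692, minus): gtgctgTGTATATAgTGTATATAagcggac

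At 0 h NORAD was 624.1, 680.1, 548.1 and 563.8 CPM in parental cells and 400.8, 264.8, 244.8 and 222.7 in LB2. All LB2 libraries were below all parental ones (log2 fold change -1.10 ± 0.14, 2.14-fold lower, edgeR adjusted p = 2.25e-07), a call that held under all 17 alternatives. LAC, at 726.1, 590.0, 509.4 and 545.4 CPM, and LB1, at 630.8, 611.4 and 591.6, overlapped parental cells, with log2 fold changes of -0.03 ± 0.14 and 0.02 ± 0.15. LB2 stayed low with auxin, at 413.8, 373.0, 230.6 and 348.9 CPM at 16 h and 399.9, 376.3 and 354.7 at 96 h. Over all times its 11 libraries, at 222.7 to 413.8 CPM, lay below the other 35, at 506.8 to 795.9. The difference was thus present before any auxin was given.

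Auxin moved NORAD little in any line. The 8 changes from 0 h ran from 0.05 to 0.42 on the log2 scale, with the lowest edgeR adjusted p at 0.119, in LB2 at 96 h. The LB2 rise at 96 h was called in 5 of 16 alternatives. Of 8 genes tested within 250 kb of NORAD, edgeR called 0 in LB2 against parental cells before auxin (8.21% of all genes called), with a median of 0.03. Of 8 proteins known to bind NORAD, edgeR called 0 in that comparison. At 96 h in LAC (15.4% of all genes called) PUM2, a Pumilio protein, rose (0.55) and ALYREF, an RNA export factor, fell (-0.97). In parental cells (7.78%) RBMX rose (0.44).

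TUG1, like NORAD, had its lowest group means in LB2, with a smaller gap. At 0 h it was 148.2, 227.4, 167.2 and 151.3 CPM in parental cells and 72.1, 137.7, 127.9 and 128.1 in LB2. The groups did not overlap, and the log2 fold change of -0.56 ± 0.19 had an edgeR adjusted p of 0.0504; 7 of 17 alternatives called it. In LB2 it was 187.1, 154.1, 54.4 and 138.8 CPM at 16 h and 140.7, 132.8 and 153.9 at 96 h. The lowest of these, 54.4, came from the least deep library. The other lines ran from 124.0 to 269.1 CPM at all times. The 8 changes from 0 h were 0.11 to 0.38 on the log2 scale, and the lowest adjusted p was 0.177. In parental cells at 16 h the 4 libraries lay at 224.4 to 228.9 CPM. Of 11 genes tested within 250 kb of TUG1, 1 differed in LB2 before auxin, SELENOM (1.63), with 8.21% of all genes called.

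The promoters of NORAD and TUG1 are shown because their group means correlated, with Pearson r = 0.97 over the 12 groups. The LB2 groups were lowest for both. NORAD means were 283.3 to 376.9 CPM there and 592.7 to 724.6 elsewhere, and TUG1 means 116.5 to 142.5 and 173.5 to 229.4. The r thus holds the gap between LB2 and the other lines, and shared regulation was not tested. RefSeq windows (GRCh38.p14, 250 bases before to 50 after the start) were given for 3 of the 5 genes. The motifs CCGGAA, the core bound by ETS factors, and CCAAT, the box bound by NF-Y, were searched on both strands and are in capitals. CCGGAA occurred 4 times in NORAD and 0 times in TUG1, and in 17.2% of 35116 promoter windows of this length. CCAAT occurred 0 times in NORAD and 2 times in TUG1, and in 34.6% of windows.
NORAD promoter (chr20:36050911-36051210, minus): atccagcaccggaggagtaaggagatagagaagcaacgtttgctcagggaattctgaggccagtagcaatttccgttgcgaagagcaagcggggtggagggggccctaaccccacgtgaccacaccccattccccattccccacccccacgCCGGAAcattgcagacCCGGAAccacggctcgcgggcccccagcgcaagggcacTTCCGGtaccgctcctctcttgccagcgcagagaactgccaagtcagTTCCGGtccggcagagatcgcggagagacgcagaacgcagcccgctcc
TUG1 promoter (chr22:30969015-30969314, plus): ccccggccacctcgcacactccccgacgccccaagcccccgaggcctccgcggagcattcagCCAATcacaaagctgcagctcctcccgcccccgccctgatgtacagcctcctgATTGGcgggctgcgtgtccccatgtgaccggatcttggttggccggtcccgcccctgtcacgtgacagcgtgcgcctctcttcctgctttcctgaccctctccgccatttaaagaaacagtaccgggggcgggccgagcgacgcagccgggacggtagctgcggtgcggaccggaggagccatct

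Likeness was measured as Pearson r of log2 group means over the 12 groups, among 9627 genes with a mean of at least 10 CPM, and is a description of points that share libraries and depth. NORAD was closest to MOB3B (0.98), PIGM (0.97) and TUG1 (0.97), and TUG1 to PIGM (0.98), PATZ1 (0.98) and SLC12A2 (0.97). MALAT1 was closest to the mitochondrial pseudogene MTND2P28 (0.93) and to MT-ATP8 (0.92) and MT-ND1 (0.91), genes of the mitochondrial genome, and its r with KCNQ1OT1 was 0.87. NEAT1 was closest to MIR4435-2HG (0.864), HOXB4 (0.863) and PATJ (0.855), and its r with MALAT1 was 0.47. KCNQ1OT1 was closest to PLAC4 (0.94). Within the 5, NEAT1 was nearest to KCNQ1OT1, at 0.63. Among the 20 noncoding genes of highest level per kilobase, edgeR called 3 in parental cells at 16 h (9.01% of all genes called). AFAP1-AS1 and ENSG00000263731 were higher and NEAT1 was lower. In LB2 before auxin 4 of the 20 were lower, NORAD with the largest change at -1.10, and 1 higher, ENSG00000279602 at 0.47 (8.21% of all genes called).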

How the data were processed

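The 5 genes and the gene lists were chosen with earlier results of these data known. Per the file headers, the authors deposited read counts per gene, made with featureCounts v1.6.4; the submitters' processing notes also name STAR 2.7.10a, SAMtools 1.10, deepTools 3.4.5, DESeq2 1.40.2 and GRCh38. Per the labels' protocols, rRNA-depleted total RNA was made into stranded, paired libraries. Whether counting used strand is not given in the sources used here and was read from overlapping genes. All 46 columns matched their samples, and 3 broken lines of the table (1 gene) were left out. GENCODE 29 transcripts and RefSeq promoter windows gave the sequences.

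Counts were scaled by TMM, filtered with filterByExpr and tested by edgeR 4.0.16 (R 4.3.3) in 1 quasi-likelihood fit of 12 group means over 46 libraries, with Benjamini-Hochberg adjustment over all 21484 genes. The script was tested on simulated data. Alternatives were DESeq2 1.42.0, limma 3.58.1 with sample weights, other scalings, no filter, a GC and length trend removed, fewer libraries, a replicate block and each library left out. Of 62756 genes, 42302 (67.4%) had a symbol. The text names the 5 genes in every comparison, list members and neighbours within 250 kb that were called, and for each gene those nearest in pattern. Some of these genes are not reported here.

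Replicate numbers come from the sample titles. Deviations of same-numbered libraries correlated above 0.1 in all 4 pairs only between LAC at 0 h and 16 h (0.124 to 0.691), in 1 of 8 pairs of groups. The block changed no call there. No 2 libraries of a group agreed within sampling noise (lowest chi-square per degree of freedom 3.82).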

Additional observations from a re-analysis of the deposited data

Results flagged for a closer look

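In 3 groups of 4 libraries 1 library stood apart: its gap to the nearest other, as a share of the group's range, passed Dixon's 95% limit. These were MALAT1 in LAC at 0 h replicate 1 (38.5 CPM, the others 16.2 to 19.8), MALAT1 in LAC at 16 h replicate 1 (25.4 CPM, the others 11.9 to 13.8) and TUG1 in LB2 at 0 h replicate 1 (72.1 CPM, the others 127.9 to 137.7). Of 50 groups looked at, chance alone is expected to mark about 1 in 20.

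In 5 cases the response to auxin differed from that of parental cells by a test of the difference itself, with edgeR. For NEAT1 the log2 differences were 1.27 in LAC at 16 h, 1.57 in LAC at 96 h, 1.57 in LB1 at 96 h and 1.29 in LB2 at 96 h, all against the same parental libraries. For KCNQ1OT1 it was 1.42 in LB1 at 96 h.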

How the results depend on the processing

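For single RNAs, 43 results were called in edgeR or in an alternative. Of their 779 alternative values 690 kept the direction and the side of the threshold, 66 passed where the reported value did not, 19 no longer passed and 4 turned direction, none of them in a called result. The 4 came with the GC and length trend removed: KCNQ1OT1 in parental cells at 96 h (0.014), in the LAC minus parental response at 96 h (-0.064) and in LAC against parental cells at 0 h (0.15), and NORAD in LAC at 16 h (-0.084). The cause was not tested. Of the 62 results called nowhere, 29 took the other sign in 79 of 1206 values.

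The number of the 5 RNAs called moved as follows. In parental cells at 96 h it was 2 with the compared libraries alone and 3 with limma. In LAC at 16 h it was 1 with the GC and length trend removed or DESeq2, 2 with limma, and 0 to 1 leaving out single libraries. In LB1 at 16 h it was 2 with RLE scaling, library size only, no filter, the replicate block, no libraries under 5000000 counts, compared libraries alone, limma or DESeq2, and 1 to 2 leaving out single libraries. In LB1 at 96 h it was 2 with no filter or compared libraries alone, and 0 to 1. In LB2 at 16 h it was 2 without libraries under 5000000 counts or with DESeq2, 0 with compared libraries alone, 3 with limma, and 0 to 2. In LB2 at 96 h it was 1 with library size only, no filter, no libraries under 5000000 counts or DESeq2, 3 with limma, and 0 to 1. For the response differences at 96 h it was 2 in LAC with library size only or compared libraries alone, 1 in LB1 with the GC and length trend removed (1 to 2 leaving out single libraries), and 2 in LB2 with no filter, limma or DESeq2 (0 to 1). Against parental cells at 0 h it was 2 in LAC with library size only, and in LB2 2 with RLE scaling, library size only or the GC and length trend removed, 3 with the replicate block, limma or DESeq2, and 1 to 2. From 16 to 96 h it was 1 in parental cells with no filter, the GC and length trend removed or compared libraries alone and 2 with limma, 0 to 1 in LAC and 1 to 2 in LB2 leaving out single libraries.

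Under the replicate block the count in LB1 at 16 h was 2 and in LB2 against parental cells at 0 h 3; apart from LAC at 0 h and 16 h the libraries share only a number. The level of MALAT1 was 23.5 CPM per kilobase over its free bases, and that of TUG1 25.76 over its longest GENCODE 29 transcript. RefSeq transcript lengths were not used here. MALAT1 and KCNQ1OT1 had as few as 15 and 11 counts in a library, which limits their precision.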
